A study of Mus musculus with 18 samples.

Results

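Described here are 40 genes of mitosis and the spindle, which were picked by name for their roles in building the spindle, attaching chromosomes to it and dividing the cell, among 19326 rows of expression values from mouse spleen. All 40 were found, and all 40 reached a mean of 1 FPKM in at least 1 group, the condition for testing that 12969 genes met. FPKM is a read count scaled to transcript length and library size, so levels of different genes can be set side by side. The libraries, 3 in each group, came from ICR mice, an outbred stock, at 10 weeks of age. They fell into 6 groups: a high fat diet with transplantation from donors given AOS at 10 mg/kg (HFD+AOS-FMT), the diet with transplantation from control donors (HFD+control-FMT), the diet with AOS at 10 mg/kg (HFD+AOS), the diet alone (HFD), AOS at 10 mg/kg without the diet (AOS), and controls with neither. AOS was read as alginate oligosaccharide, a short product of a seaweed polysaccharide, and FMT as faecal microbiota transplantation, since the labels give only the letters, and the word before FMT was read as the treatment of the donors, which the labels do not describe further. The comparisons ask whether the diet moved these genes, and whether AOS or the transplants moved them in mice on the diet. The labels do not say that each library was a separate animal, so the p-values measure the spread between these libraries, which may be partly technical.

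A cell divides its chromosomes by condensing them, attaching each sister pair through its kinetochores to the microtubules of a bipolar spindle, and holding back separation until a checkpoint finds every kinetochore attached. The cyclin B kinase starts these steps, and the anaphase-promoting complex ends them by marking cyclin B and securin for destruction. Transcripts of these genes accumulate in G2 and M phase and are low in resting cells, so in a tissue they serve as markers of dividing cells. In the mouse spleen, dividing cells include red cell precursors of the red pulp and B cells and plasmablasts of the white pulp. Many of the genes share a promoter element, the cell cycle genes homology region (CHR), often with CCAAT boxes upstream. The CHR is a docking place for the DREAM complex, which represses the genes in resting cells, and for a B-Myb and FoxM1 assembly that activates them late in the cycle, while NF-Y binds CCAAT boxes.

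Libraries differed in their totals, from 627964 to 831448 FPKM, in the share taken by haemoglobin, from 10.8% in HFD replicate 3 to 34.4% in control replicate 1, and little in the genes at 1 FPKM or more, from 12221 to 12898. Read depth behind the values is unknown. Control replicate 1 stood apart, with 6475 FPKM summed over 12 granulocyte precursor genes against 154 to 1862 FPKM in the other libraries. Sperm and testis transcripts, not of spleen, summed to at most 13.9 FPKM in the treated groups and to 17.3 to 279 FPKM in the controls. The spleen itself was marked by its B cell genes, which summed to 1641 to 3296 FPKM, with none of the 10 at 0 in every library. In bulk tissue of this kind, fewer cells of a type and less RNA per cell cannot be told apart.

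The promoters of 6 members are shown because each gene had the smallest F test p of its functional group and a CHR in the window (the first 6 in order of that p), and because the elements that the genes share can be seen in them. RefSeq windows on GRCm38.p6, from 250 bases before to 50 bases after the annotated start, were at hand for 35 of the 40 genes. They are given 5′ to 3′ on the gene's strand: Mki67 (chr7:135716330-135716629, minus strand), Ccnb2 (chr9:70421505-70421804, minus), Bub1b (chr2:118597961-118598260, plus), Cenpf (chr1:189688037-189688336, minus), Hmmr (chr11:40733388-40733687, minus) and Anln (chr9:22389157-22389456, minus). Capitals mark a CHR, a CCAAT box or an E2F core. The CHR was searched in the form TTTGAA. A second form of it was TTCGAA. For the E2F core the forms were TTCCCGC, as well as the forms TTGGCGC, and further TTCGCGC, and lastly TTGCCGC. All were searched on both strands, so that TTCAAA stands for a CHR and ATTGG for a CCAAT box on the opposite strand.
Mki67: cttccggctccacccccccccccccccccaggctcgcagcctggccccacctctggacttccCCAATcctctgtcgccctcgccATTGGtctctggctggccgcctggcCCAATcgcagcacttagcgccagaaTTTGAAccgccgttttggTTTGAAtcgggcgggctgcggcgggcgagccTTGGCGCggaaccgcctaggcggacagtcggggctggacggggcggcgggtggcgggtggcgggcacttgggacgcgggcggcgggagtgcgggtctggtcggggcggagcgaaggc
Ccnb2: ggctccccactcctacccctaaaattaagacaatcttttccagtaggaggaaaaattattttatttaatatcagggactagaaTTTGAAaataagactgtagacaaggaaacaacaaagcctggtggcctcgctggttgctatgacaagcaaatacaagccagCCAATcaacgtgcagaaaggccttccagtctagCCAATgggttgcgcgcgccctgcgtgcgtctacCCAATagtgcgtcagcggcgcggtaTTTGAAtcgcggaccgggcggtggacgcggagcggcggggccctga
Bub1b: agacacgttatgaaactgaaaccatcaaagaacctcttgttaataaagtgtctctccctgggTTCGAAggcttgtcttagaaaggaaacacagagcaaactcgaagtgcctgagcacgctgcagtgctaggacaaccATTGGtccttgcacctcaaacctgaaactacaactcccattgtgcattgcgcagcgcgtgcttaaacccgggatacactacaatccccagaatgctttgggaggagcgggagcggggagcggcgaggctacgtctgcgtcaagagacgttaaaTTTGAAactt
Cenpf: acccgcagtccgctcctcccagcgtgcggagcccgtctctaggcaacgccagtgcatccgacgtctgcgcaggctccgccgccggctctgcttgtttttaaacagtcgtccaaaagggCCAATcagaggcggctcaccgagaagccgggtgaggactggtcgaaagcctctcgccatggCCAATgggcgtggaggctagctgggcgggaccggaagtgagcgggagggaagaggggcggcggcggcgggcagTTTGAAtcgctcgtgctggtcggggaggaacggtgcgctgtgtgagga
Hmmr: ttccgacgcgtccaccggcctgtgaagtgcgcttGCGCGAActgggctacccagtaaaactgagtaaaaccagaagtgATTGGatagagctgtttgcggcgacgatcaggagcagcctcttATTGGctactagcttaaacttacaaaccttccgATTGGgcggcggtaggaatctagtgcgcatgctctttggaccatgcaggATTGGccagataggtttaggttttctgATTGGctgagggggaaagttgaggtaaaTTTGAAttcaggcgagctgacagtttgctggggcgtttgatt
Anln: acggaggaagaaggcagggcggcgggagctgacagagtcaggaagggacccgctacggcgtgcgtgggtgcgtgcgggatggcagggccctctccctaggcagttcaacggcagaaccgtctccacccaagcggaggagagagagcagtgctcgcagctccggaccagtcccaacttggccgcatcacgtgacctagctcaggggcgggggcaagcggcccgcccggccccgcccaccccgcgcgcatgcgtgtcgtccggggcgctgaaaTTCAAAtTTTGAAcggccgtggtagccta

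The Hmmr window held 5 CCAAT boxes before a single CHR close to the start, the Ccnb2 window 3 CCAAT boxes with a CHR on either side of them, and the Anln window 2 CHR matches and no CCAAT box. A CHR was found in 29 of the 35 genes, 82.9%, against 17.01% of the 10171 tested genes with a window and 21.7% of all 27025 genes with one. CCAAT boxes were found in 27 of the 35, 77.1%, against 43.1% of tested genes. Both elements stood together in 25 of the 35, 71.4%, against 7.15% of tested genes. Ect2 and Prc1 have a pair of overlapping windows each, and positions were taken from the first-listed window of each gene. The 40 CHR matches lay at a median of 10 bases before the start and 28 of them within 50 bases of it, and the 64 CCAAT matches lay at a median of 67.5 bases before it. An E2F core, an element better known from S phase genes, was found in 6 of the 35, 17.1%, against 18.8% of tested genes. These are letter matches on both strands and do not show that a factor was bound in these spleens.

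As a class the genes were well expressed, with a median of 26.8 FPKM over the 40 gene means, against 12.2 FPKM over all tested genes. Ube2c, the ubiquitin-conjugating enzyme of the anaphase-promoting complex, was the highest at a mean of 262 FPKM, followed by Birc5 (survivin, of the chromosomal passenger complex) at 139 FPKM and Mki67 (Ki-67, which coats mitotic chromosomes) at 115 FPKM. At the other end, Ttk, the kinase that starts the spindle checkpoint, averaged 6.43 FPKM, and 5 members were under 10 FPKM. Ube2c also varied most among the 18 libraries, its highest value being 3.75 times its lowest, and Mad2l1, the checkpoint protein that inhibits Cdc20, varied least, at 1.66 times. The genes are spread over 16 chromosomes. Ccnb1, Ccnb2, Kif22 and Kif4 have a pseudogene named after them in the annotation, and since the way reads were counted is not given, their values are less certain than those of the others.

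The 40 genes went up and down together across libraries. HFD replicate 2 was the lowest library for 29 of them, HFD replicate 3 for 9, and HFD+control-FMT replicate 2 for Spc25 and Hmmr. Control replicate 1 was the highest for 39, the exception being Cdc20, which peaked in HFD+AOS replicate 1. Summed over the 40 genes, libraries held 931 to 2549 FPKM, or 0.148% to 0.307% of their totals. The mean of the 40 genes on the log2(FPKM + 1) scale was 4.75 ± 0.081 in HFD+AOS-FMT, 4.48 ± 0.142 in HFD+control-FMT, 4.81 ± 0.345 in HFD+AOS, 4.37 ± 0.313 in HFD, 4.85 ± 0.070 in AOS and 4.995 ± 0.422 in control (SD, n = 3 each). Ordered from the top, the groups ran control, AOS, HFD+AOS, HFD+AOS-FMT, HFD+control-FMT and HFD, and no neighbours in that order differed by more than the pooled SD of 0.267. Control had the highest group mean for 32 genes, HFD+AOS for 5 and AOS for 3, while HFD had the lowest for 35 and HFD+control-FMT for 5.

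**Figure D1:**
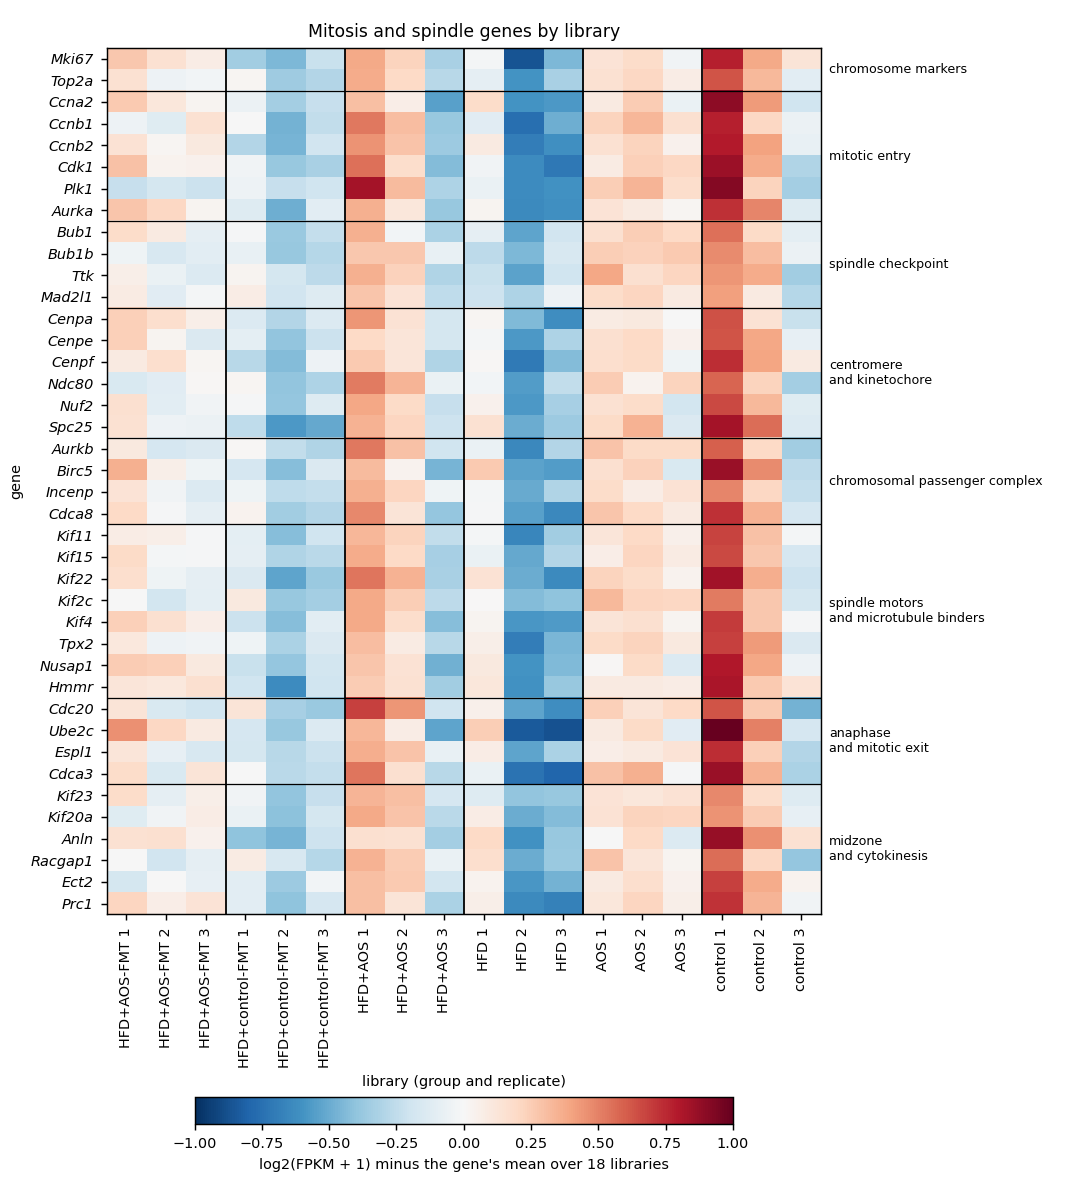
Heat map of 40 mitosis and spindle genes (rows, by functional group) in 18 libraries (columns), with colour giving log2(FPKM + 1) minus the gene's mean over all libraries. Whole columns share a colour: HFD replicate 2 is lowest for 29 genes, and control replicate 1 is highest for 39.

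Libraries of a group could differ in most of the genes at once. In HFD+AOS, 40, 38 and 0 of the 40 genes were above their own median over all libraries in replicates 1, 2 and 3. In HFD the counts were 18, 0 and 0, and in control they were 40, 40 and 6. The AOS group, with 37, 39 and 24, and the HFD+AOS-FMT group, with 33, 16 and 15, were more even, and HFD+control-FMT had 14, 0 and 0. By these counts, control replicate 3 was unlike the other controls, and HFD replicate 1 unlike the others on the diet alone. HFD+AOS replicate 3 was likewise unlike the rest of its group. The counts cannot exceed 40 and so hide the spacing at the top. On the mean of the 40 genes, control replicates 1 to 3 stood at 5.40, 5.03 and 4.56, with replicate 2 between the others.

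Under the high fat diet alone, all 40 genes were lower than in controls, 4 of them past the test: Mki67, Bub1b, Cenpf and Ect2. The differences ran from -0.94 for Ube2c to -0.26 for Mad2l1 on the log2(FPKM + 1) scale, with a median of -0.65, while the median over all tested genes was 0.10. The 4 called genes, at a limma adjusted p under 0.05 over all tested genes, stand against 2.75% of all tested genes called in this comparison, 1.3% called lower and 1.46% called higher, where no member was higher. At an unadjusted p under 0.05, 37 of the 40 were lower, against 9.08% of all genes, and the share of all genes lower by any amount was 31.5%. HFD and control libraries did not overlap for 5 genes, Mki67, Bub1b, Cenpf, Ccnb1 and Hmmr, against 5.44% of all genes. Rescaling the libraries by median ratios brought the median of all genes to 0.00, a shift of about 0.1, and that of the 40 genes to -0.76.

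Both chromosome markers were lower. Mki67 (chr7:135689784-135716361), whose protein keeps mitotic chromosomes from sticking to each other, had 109.7, 60.8 and 81.4 FPKM in HFD replicates 1 to 3, against 192, 145 and 121 FPKM in controls. Every HFD library was below every control, and the log2 difference was -0.87 with a standard error of 0.205 and a limma adjusted p of 0.0452. Top2a, the topoisomerase that untangles sister chromatids, averaged 50.01 ± 8.90 FPKM in HFD and 78.2 ± 19.7 FPKM in control (SD, n = 3 each) and did not pass (limma adjusted p = 0.0653).

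None of the 6 genes of mitotic entry passed, though all were lower at an unadjusted p under 0.05, by -0.78 for Ccnb2 to -0.70 for Plk1. Ccnb2, which encodes a B-type cyclin (chr9:70407692-70421547), had 61.3, 35.1 and 37.2 FPKM in HFD replicates 1 to 3, against 100.1, 76.2 and 54.5 FPKM in controls. HFD replicate 1 lay above control replicate 3, so the groups overlapped (limma adjusted p = 0.0647). Ccnb1, the other B-type cyclin, did not overlap, with 24.5 ± 5.803 FPKM in HFD and 42.7 ± 13.4 FPKM in control (SD, n = 3 each; limma adjusted p = 0.0681). Cdk1, the kinase both cyclins switch on, Ccna2, a cyclin of S and G2 phase, and the kinases Plk1 and Aurka, which mature the centrosomes, make up the rest of the group.

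Among the 4 checkpoint genes, Bub1b passed. It encodes BubR1, part of the complex that restrains Cdc20 until chromosomes are attached (chr2:118598211-118641591). Its values were 11.4, 9.83 and 12.2 FPKM in HFD replicates 1 to 3, against 19.5, 17.3 and 13.3 FPKM in controls, a difference of -0.53 with a standard error of 0.127 and a limma adjusted p of 0.0456. The groups did not overlap, but HFD replicate 3 and control replicate 3 came close. Ttk did not pass, at 4.88 ± 0.743 FPKM in HFD and 7.36 ± 2.29 FPKM in control (SD, n = 3 each; limma adjusted p = 0.128), and Mad2l1 had the smallest difference of all 40 (limma adjusted p = 0.270).

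Of the 6 genes of the centromere and kinetochore, Cenpf passed, and the other 5 were lower at an unadjusted p under 0.05. Cenpf, a large coiled-coil protein of the outer kinetochore (chr1:189640606-189688086), had 7.83, 4.36 and 5.49 FPKM in HFD replicates 1 to 3, against 13.6, 10.5 and 8.32 FPKM in controls. Each HFD library was below each control, and the log2 difference was -0.78 with a standard error of 0.190 and a limma adjusted p of 0.0459. Ndc80, Nuf2 and Spc25, subunits of the complex that grips the microtubule end, Cenpa, the histone H3 variant of centromeres, and Cenpe, a kinetochore motor, did not pass, with differences no smaller in size than that of Ndc80 at -0.43.

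The 4 genes of the chromosomal passenger complex, which corrects faulty attachments, were lower at an unadjusted p under 0.05 with none past the adjusted test. Incenp, its scaffold (chr19:9872296-9899551), had 28.9, 20.4 and 23.7 FPKM in HFD replicates 1 to 3, against 41.5, 34.1 and 24.7 FPKM in controls, and the groups overlapped (limma adjusted p = 0.108). Aurkb, the kinase of the complex, Birc5 and Cdca8 (borealin) lay in the same range, with the size largest for Cdca8 at -0.71.

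All 8 spindle motors and microtubule binders were lower at an unadjusted p under 0.05, and none passed. Kif11, the motor that pushes the spindle poles apart, came nearest, at 17.5 ± 4.06 FPKM in HFD and 28.2 ± 7.02 FPKM in control (SD, n = 3 each; limma adjusted p = 0.0538). Hmmr, a spindle-associated protein also known as a hyaluronan receptor (chr11:40701395-40733422), had 19.1, 11.2 and 13.2 FPKM in HFD replicates 1 to 3, against 31.6, 21.3 and 19.3 FPKM in controls. The lowest control was only just above the highest HFD library (limma adjusted p = 0.0602). The chromosome-bound motors Kif22 and Kif4, the microtubule depolymerase Kif2c, the plus-end motor Kif15, the Aurora A activator Tpx2 and the microtubule bundler Nusap1 differed by -0.48 or more in size.

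In the group of anaphase and mitotic exit, 3 of 4 genes were lower at an unadjusted p under 0.05 and none passed. Ube2c (chr2:164769898-164778822) had 295, 139 and 135 FPKM in HFD replicates 1 to 3, against 507, 354 and 221 FPKM in controls. Its difference of -0.94 was the largest among the 40 genes, but HFD replicate 1 exceeded control replicate 3, and the standard error of 0.308 was large too (limma adjusted p = 0.0802). Cdca3, which takes part in the degradation of the mitotic inhibitor Wee1 (chr6:124829547-124833701), averaged 24.3 ± 7.54 FPKM in HFD and 45.1 ± 17.98 FPKM in control (SD, n = 3 each; limma adjusted p = 0.0754). Cdc20, the activator of the anaphase-promoting complex, did not pass (limma adjusted p = 0.214), and neither did Espl1, the separase that cuts cohesin.

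Among the 6 genes of the midzone and cytokinesis, Ect2 passed. Ect2 activates RhoA at the cell equator (chr3:27097222-27153878), and it had 9.58, 5.90 and 6.41 FPKM in HFD replicates 1 to 3, against 15.6, 12.3 and 9.57 FPKM in controls. HFD replicate 1 and control replicate 3 were level, so the groups overlapped although the difference of -0.70, with a standard error of 0.176, passed (limma adjusted p = 0.0475). Anln, anillin, which scaffolds the contractile ring (chr9:22332012-22389188), missed the threshold, with 13.6, 7.36 and 8.78 FPKM in HFD replicates 1 to 3, against 22.3, 16.5 and 13.2 FPKM in controls (limma adjusted p = 0.0511). Kif23 and Racgap1, which form centralspindlin, the bundler Prc1 and the motor Kif20a did not pass, with Racgap1 at -0.36 the smallest in size.

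**Figure D2:**
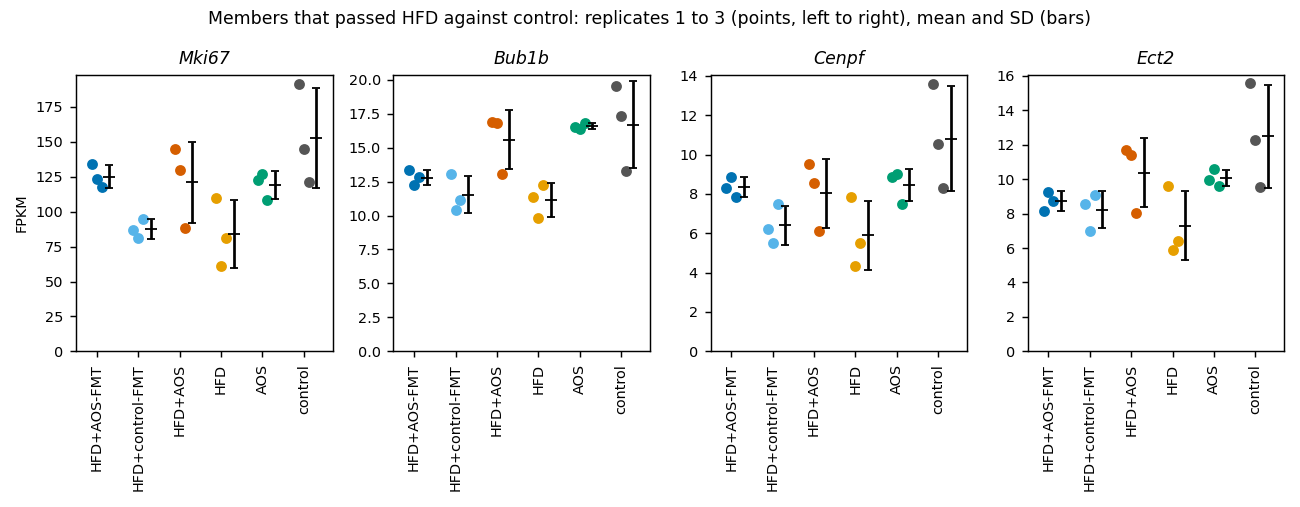
FPKM of the 4 members past the test for HFD against control in all 6 groups, as 3 points per group (replicates 1 to 3) with the mean and SD as bars. HFD points lie below all control points for Mki67, Bub1b and Cenpf and touch the lowest control for Ect2.

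**Figure D3:**
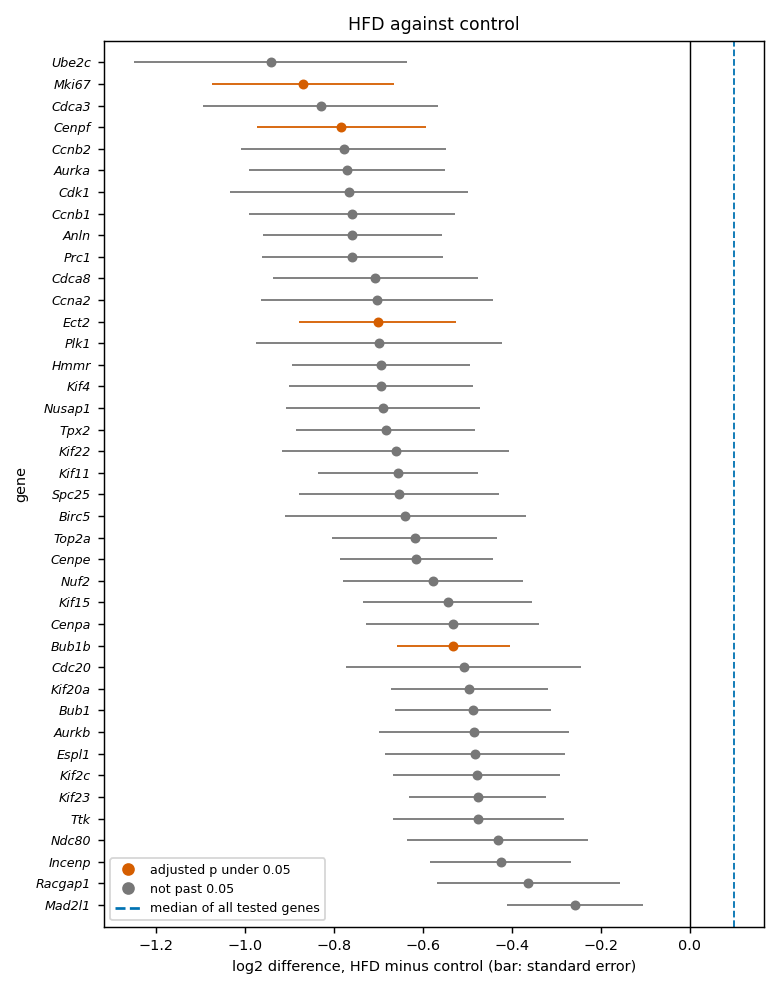
Log2 difference, HFD minus control, of all 40 members with standard errors, ordered by size, with those at a limma adjusted p under 0.05 in orange and the median of 12969 tested genes as a dashed line. All 40 lie below 0, from -0.94 for Ube2c to -0.26 for Mad2l1.

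These calls hung on single libraries, while the sign of the median did not. None of the 40 genes was called when any 1 of 13 libraries was left out, namely any HFD+AOS-FMT library, HFD+control-FMT replicate 1 or 2, HFD+AOS replicate 2, HFD replicate 2 or 3, any AOS library, or control replicate 1 or 2. Without HFD+AOS replicate 3 the count was 13, without HFD replicate 1 it was 27, and without control replicate 3 it was all 40, with 4.47%, 9.3% and 29% of all tested genes called. The median of the 40 genes lay between -0.87 without HFD replicate 1 and -0.44 without control replicate 1. The calls also ended, with 0 of 40, under 5 of the other settings tried, among them a fit to the HFD and control libraries alone.

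Of 73 further mitosis genes, 9 were lower past the test and 71 lower by any amount, with a median of -0.51, and none was called higher. Aspm, which focuses the spindle poles, averaged 5.62 ± 0.638 FPKM in HFD and 9.49 ± 1.43 FPKM in control (limma adjusted p = 0.0443), and Kntc1, of the checkpoint complex at kinetochores, 5.19 ± 1.34 FPKM in HFD and 9.69 ± 2.60 FPKM in control (SD, n = 3 each; limma adjusted p = 0.0450). Of 33 S phase genes 1 was called lower, Cdc6, which loads the replicative helicase, and their median was -0.47. The 9 G1 cyclins and kinases held 2 called lower, both E-type cyclins, Ccne2 at -0.90 and Ccne1 at -0.84 (limma adjusted p = 0.0443 and 0.0452), and a median of -0.23. Among the D-type cyclins of that list, Ccnd2 at 0.48 and Ccnd1 at 0.36 went the other way without passing (limma adjusted p = 0.0600 and 0.0778). The D-type cyclin Ccnd3 was lower, at -0.29, and did not pass (limma adjusted p = 0.287). At an unadjusted p under 0.05 the list held 2 higher and 3 lower. Of 12 cell cycle inhibitors none was called, the median was 0.11, and 10 of the 12 were above 0, against a median of 0.10 and 68.5% above 0 for all genes. At an unadjusted p under 0.05, 2 of the 12 were higher and 2 lower.

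Of 23 known regulators of the mitotic genes, 1 was called lower, and 17 were lower by any amount with a median of -0.22. The called gene was Tfdp2, the partner that E2F proteins bind DNA with, at 18.1 ± 6.76 FPKM in HFD and 34.3 ± 5.88 FPKM in control (limma adjusted p = 0.0443). Rb1, the retinoblastoma protein, had 43.8 ± 5.38 FPKM in HFD and 55.2 ± 5.19 FPKM in control (SD, n = 3 each; limma adjusted p = 0.0525). These list medians were not tested against each other.

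Markers of several cell types differed between HFD and control as well. Of 19 erythroid genes, 9 were called lower and all 19 were lower, with a median of -1.08. Their summed level was 999 to 2173 FPKM in HFD and 2336 to 3837 FPKM in control, with no gene at 0 in every library. Trim10, of late red cell precursors, stood at 39.5 ± 21.0 FPKM in HFD and 108 ± 26.7 FPKM in control, and Epb42, of the red cell membrane, at 21.6 ± 9.05 FPKM in HFD and 50.3 ± 7.46 FPKM in control (SD, n = 3 each). T cell genes were higher, 4 of 10 past the test with a median of 0.70 and summed levels of 461 to 504 FPKM in HFD and 205 to 357 FPKM in control. None of 12 granulocyte precursor genes was called, with a median of -1.88 and summed levels of 252 to 556 FPKM in HFD and 329 to 6475 FPKM in control. None of 10 megakaryocyte genes was called, with a median of -0.65 and 691 to 1025 FPKM in HFD, against 833 to 2093 FPKM in control. At an unadjusted p under 0.05, all 12 and 7 of the 10 were lower, against 9.08% of all genes. The 8 sperm and testis genes were all lower, 3 of them past the test, with a median of -2.24. They summed to 3.05 to 5.93 FPKM in HFD and 17.3 to 279 FPKM in control. None of 10 B cell genes was called, with a median of 0.42. At an unadjusted p under 0.05, 6 of them were higher, and the share of all genes higher at that level is not given here. None of 9 plasma cell genes was called, with a median of 0.31, and 1 of 10 germinal centre genes, Bcl6, was called higher. The part of any of these cell types in the level of the mitosis genes was not tested.

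**Figure D4:**
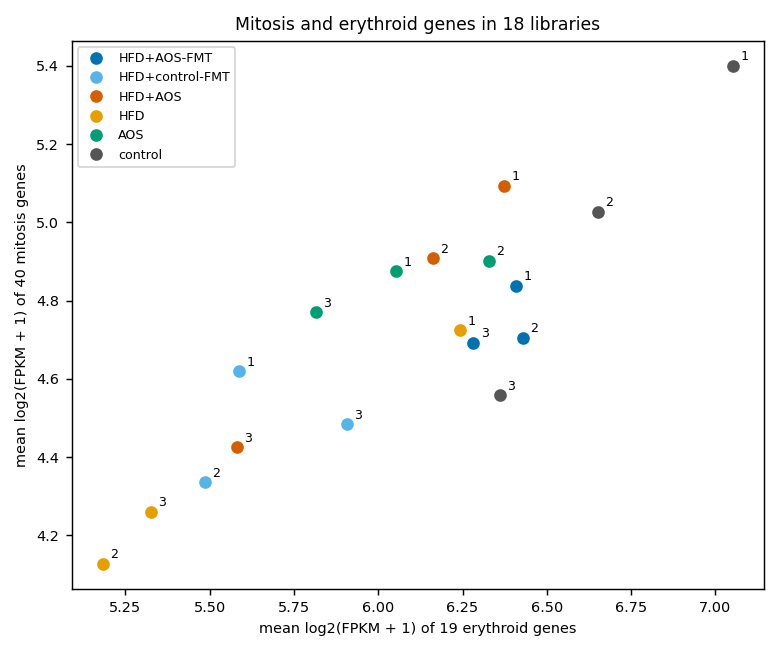
Mean log2(FPKM + 1) of the 40 mitosis genes (vertical axis) against that of 19 erythroid genes (horizontal axis), 1 point per library, coloured by group and numbered by replicate. HFD replicate 2 is lowest on both axes, at 4.13 and 5.18, and control replicate 1 highest on both, at 5.40 and 7.05, while control replicate 3 lies low on the vertical axis, at 4.56, for its erythroid level of 6.36.

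With AOS added to the diet, all 40 genes were higher than under the diet alone, and none passed the test. The median difference was 0.44, from 0.24 for Mad2l1 to 0.71 for Plk1, while that of all genes was -0.03 and 41.9% of all genes were above 0. In limma, 0 of the 40 and 0% of all tested genes were called, the smallest adjusted p being 0.192, for Bub1b. At an unadjusted p under 0.05, 19 of the 40 were higher, against 6.16% of all genes. Bub1b was the single gene without overlap, at 16.9, 16.8 and 13.1 FPKM in HFD+AOS replicates 1 to 3, against 11.4, 9.83 and 12.2 FPKM in HFD, where 6.42% of all genes had HFD+AOS libraries all above HFD ones.

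Plk1, Cdc20 and Cdca3 were the members with the widest gap between HFD+AOS and HFD. Plk1 (chr7:122159439-122169873), a kinase of centrosome maturation and cytokinesis, had 47.3, 32.7 and 20.9 FPKM in HFD+AOS replicates 1 to 3, against 24.9, 16.5 and 16.8 FPKM in HFD (limma adjusted p = 0.280). Cdc20 had 60.1, 50.4 and 32.1 FPKM in HFD+AOS, against 38.3, 25.3 and 23.6 FPKM in HFD (limma adjusted p = 0.282). HFD+AOS replicate 3 was low and HFD replicate 1 high, so the groups overlapped for both genes. The labels do not pair the libraries, and another pairing would be as valid by them. Those of the same number were set side by side because their deviations correlated, at 0.236, 0.269 and 0.191. Of the 40 genes, 39 were higher in HFD+AOS in the first pair, all 40 in the second and 35 in the third, with median differences of 0.36, 0.77 and 0.15. The pairs were chosen from these data, so the counts are no separate support, and shares over all genes are not given here. Set against HFD replicate 1 instead, HFD+AOS replicate 3 was the lower. Their means over the 40 genes on the log2(FPKM + 1) scale were 4.72 in HFD replicate 1 and 4.43 in HFD+AOS replicate 3. Left out, HFD+AOS replicate 1 brought the median down to 0.29, and HFD+AOS replicate 3 brought it up to 0.62.

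In the same comparison all 9 plasma cell genes were higher, with a median of 0.88 and 8 of them at an unadjusted p under 0.05, and they summed to 1676 to 2813 FPKM in HFD+AOS, against 846 to 1329 FPKM in HFD. All 19 erythroid genes were above 0, with a median of 0.47, but only 3 of them at an unadjusted p under 0.05 and 0 called. Their summed levels were 1268 to 2478 FPKM in HFD+AOS, against 999 to 2173 FPKM in HFD. Neither list's part in the level of the mitosis genes was tested. The 73 further mitosis genes, all above 0 with a median of 0.38, and the 33 S phase genes, all above 0 with a median of 0.35, held no call.

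The transplant from AOS donors also left all 40 genes above the diet alone, and again none passed the test. The median difference was 0.36, from 0.14 for Racgap1 to 0.74 for Ube2c, while the median of all genes was -0.07 and 32.5% of all genes were above 0. Limma called 0 of the 40 and 0% of all genes, with the smallest adjusted p 0.265, for Mki67. At an unadjusted p under 0.05, 11 of the 40 were higher, against 4.56% of all genes. Libraries of HFD+AOS-FMT lay all above those of HFD for 13 genes, against 6.25% of all genes, among them Mki67, Top2a, Cdk1, Aurka, Cenpa, Cenpf, Kif11 and Prc1. Left out, HFD replicate 2 brought the median to 0.23, and HFD replicate 1 to 0.52.

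Mki67 had 134, 124 and 117 FPKM in HFD+AOS-FMT replicates 1 to 3, against 109.7, 60.8 and 81.4 FPKM in HFD. Cenpa had 63.5, 60.4 and 55.8 FPKM in HFD+AOS-FMT, against 54.5, 39.1 and 34.6 FPKM in HFD (limma adjusted p = 0.299). Ube2c had 342, 287 and 265 FPKM in HFD+AOS-FMT, against 295, 139 and 135 FPKM in HFD, with HFD replicate 1 inside the range of the transplant group. Erythroid genes stood above 0 for 19 of 19 here too, 16 of them at an unadjusted p under 0.05 with 0 called, a median of 0.83 and sums of 2282 to 2455 FPKM in HFD+AOS-FMT, against 999 to 2173 FPKM in HFD. Plasma cell genes did not stand higher, with a median of -0.14 and sums of 907 to 1054 FPKM in HFD+AOS-FMT, against 846 to 1329 FPKM in HFD. The part of either list was not tested.

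The transplant from control donors left the genes near the diet alone. The median difference was 0.11, from -0.21 for Spc25 to 0.36 for Cdca3, with 36 genes above 0, against 44.4% of all genes, and 4 below, against 55.6%. Limma called 0 of the 40, against 0.0154% of all genes, and 0 of the 40 at an unadjusted p under 0.05, against 4.63% of all genes. No member had groups without overlap, where 4.57% of all genes had HFD+control-FMT libraries all above HFD ones. Mki67 had 87.2, 81.1 and 94.9 FPKM in HFD+control-FMT replicates 1 to 3, inside the HFD range of 60.8 to 109.7 FPKM. Without HFD replicate 2 the median was -0.02, without HFD replicate 1 it was 0.28 and without HFD+control-FMT replicate 1 it was 0.03. Erythroid genes had a median of 0.08.

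Set directly against each other, the transplant from AOS donors gave higher values than that from control donors for 39 of the 40 genes, and none passed the test. The median difference was 0.27, from -0.05 for Plk1 to 0.51 for Mki67, with 0.18 without HFD+control-FMT replicate 2, and 34.8% of all genes were above 0. Limma called 0 of the 40 members and 0.00771% of all genes, with the smallest adjusted p among members 0.414, for Mki67. At an unadjusted p under 0.05, Mki67, Hmmr and Anln were higher, 3 of the 40, against 3.86% of all genes. The groups did not overlap for 19 genes, against 7.8% of all genes, and these included 6 of the 8 spindle motors and microtubule binders, 4 of the 6 genes of mitotic entry and none of the 4 checkpoint genes.

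Hmmr had 19.1, 18.9 and 19.7 FPKM in HFD+AOS-FMT replicates 1 to 3, against 15.1, 10.97 and 15.1 FPKM in HFD+control-FMT. Anln had 13.1, 13.2 and 12.1 FPKM in HFD+AOS-FMT, against 8.66, 8.23 and 10.0 FPKM in HFD+control-FMT. The groups did not overlap for either gene, with Hmmr in HFD+control-FMT replicate 2 the lowest of all 18 libraries (limma adjusted p = 0.438 for each). Plk1 was the exception, at 22.1, 22.9 and 22.3 FPKM in HFD+AOS-FMT, against 25.2, 22.1 and 22.7 FPKM in HFD+control-FMT. Erythroid genes were again above 0 for 19 of 19, with a median of 0.74 and sums of 2282 to 2455 FPKM in HFD+AOS-FMT, against 1284 to 1712 FPKM in HFD+control-FMT, while all 9 plasma cell genes were below 0, with a median of -0.33. Their part was not tested.

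Without the diet, AOS left the mitosis genes close to the controls. The median difference was -0.14, from -0.48 for Anln to 0.10 for Ttk, with 32 genes below 0, against 37.6% of all genes, and 8 above, against 62.4%. Limma called 0 of the 40 and 0% of all genes. At an unadjusted p under 0.05, 1 of the 40, Anln, was lower (limma adjusted p = 0.275), against 5.23% of all genes. Hmmr, at 18.7, 18.7 and 18.5 FPKM in AOS replicates 1 to 3 and 31.6, 21.3 and 19.3 FPKM in controls, was the single gene without overlap, against 5.1% of all genes with AOS libraries all below controls. Bub1b had 16.5, 16.4 and 16.8 FPKM in AOS, inside the control range of 13.3 to 19.5 FPKM. The median turned to 0.07 without control replicate 1 and was -0.38 without control replicate 3, so its sign rested on control replicate 1. All 9 plasma cell genes were higher at an unadjusted p under 0.05, with a median of 0.87. They summed to 1418 to 1782 FPKM in AOS, against 677 to 1240 FPKM in control. At the same level 8 of 10 T cell and 7 of 10 germinal centre genes were higher. The share of all genes higher at that level is not given here, so these counts stand without it. Lower at that level were 12 of 19 erythroid genes (median -0.62), all 12 granulocyte precursor genes (median -1.95) and all 8 sperm and testis genes (median -2.51). None of these genes was called, and the part of these lists was not tested.

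Whether AOS acted differently with and without the diet was tested as an interaction, AOS under the diet minus AOS without it. All 40 genes were above 0, with a median of 0.62, from 0.15 for Mad2l1 to 0.87 for Mki67, while 34.8% of all genes were above 0. Limma called 0 of the 40 and 0% of all genes, the smallest adjusted p among members being 0.224, for Mki67. At an unadjusted p under 0.05 there were 16 of the 40, against 5.81% of all genes above 0 at that level. The median was 0.39 without control replicate 1 and 0.83 without control replicate 3. Erythroid genes were above 0 for 19 of 19 in this contrast, with a median of 1.12, 16 at an unadjusted p under 0.05 and 0 called. T cell genes were below 0 for 10 of 10, with a median of -0.68, 8 at an unadjusted p under 0.05 and 0 called, and their part was not tested. This contrast shares its HFD and control libraries with those above, so its direction is no separate evidence.

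**Figure D5:**
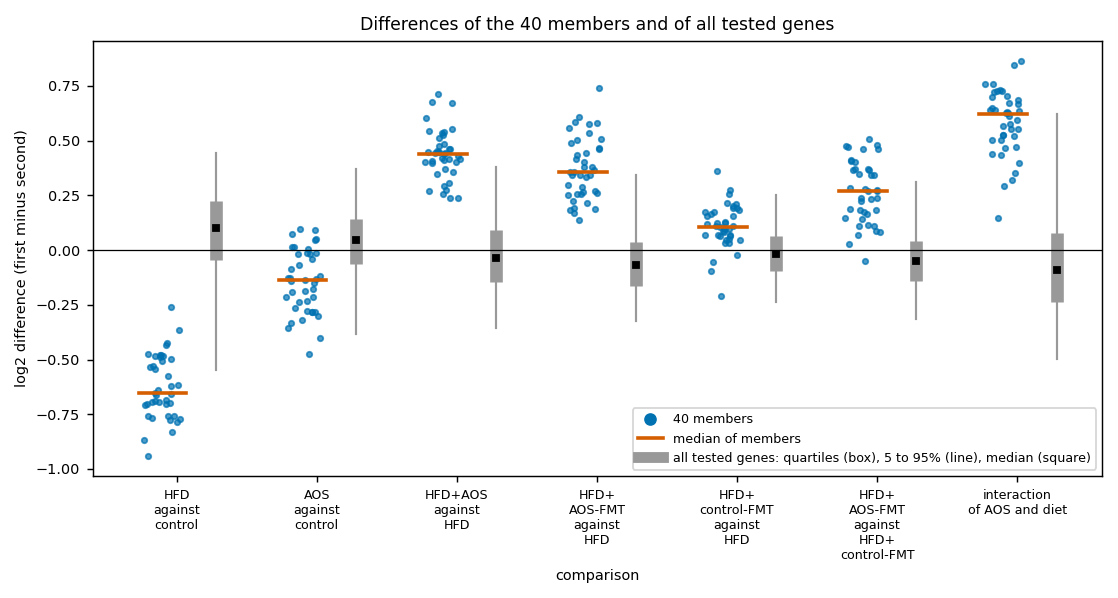
Log2 differences of the 40 members (points, with their median as a bar) beside all 12969 tested genes (grey: quartiles, 5 to 95% range and median) for 7 comparisons, first group minus second. The members' median is -0.65 for HFD against control, 0.44, 0.36 and 0.11 for HFD+AOS, HFD+AOS-FMT and HFD+control-FMT against HFD, and -0.14 for AOS against control.

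An F test for any difference among the 6 groups called 0 of the 40 genes, against 0.116% of all genes, with 19 of the 40 at an unadjusted p under 0.05, against 22% of all genes. Its smallest adjusted p was 0.0733, for Bub1b, and that of Mki67 was 0.112. Without control replicate 3 the F test called 6 members, against 7.88% of all genes, and without HFD replicate 1 it called 2, against 2.54% of all genes. The comparisons with HFD share the HFD libraries, and their values are given side by side for that reason and not as separate support.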

How the data were processed

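Illumina sequencing measured the spleen RNA of 18 libraries. Trizol and the PureLink kit served for extraction, per the labels' protocols. Bowtie 0.12.2 and mm10 are named per the submitters' processing notes. How reads were counted, and on which gene models, is not given in the sources used here. The authors deposited a table of 19326 rows whose values were read as FPKM (RPKM cannot be told apart from it), because values times transcript length summed to nearly the same total in each library, with a coefficient of variation of 0.785%, against 7.55% for plain totals. Since depth is unknown, no counting error is attached to a value. Columns were matched to samples by the group code and number in their headers.

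The analysis used log2(FPKM + 1), which understates the change of low genes. A gene was tested if its mean reached 1 FPKM in a group, which 12969 did. The tests came from limma 3.58.1 under R 4.3.3, with trended and robust variances (statmod 1.5.0), fitted once over the 18 libraries (residual degrees of freedom: 12). Benjamini and Hochberg adjustment at 0.05 was made over all tested genes within each of 8 comparisons. Same-numbered libraries deviated together in HFD+AOS against HFD, with correlations of 0.236, 0.269 and 0.191. For HFD against control the correlations were also all positive, at 0.151, 0.0379 and 0.360. Each other pairwise comparison had a correlation below 0. Any hint of pairing comes from the data, not from the labels.

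The members, the other gene lists and the tests were chosen with earlier results of these data known. Values by library or group were given for members past the test, for the member with the smallest F test p in each functional group and for the highest and lowest members. For other lists, at most the pair of genes with the smallest p was given values. Plk1, Cdc20, Cenpa, Top2a, Ccnb1, Kif11, Ccnd1, Ccnd2 and Ccnd3 were added after their values were seen. Alternatives were other pseudocounts, filters and scalings, a fit to the compared libraries alone, the replicate block and leaving out each library. The fit was tested on simulated data. Promoters came from RefSeq (GRCm38.p6), and gene positions from GENCODE vM21 (GRCm38). Tables and figures were made in Python 3.11.15 with pandas 2.3.3, numpy 2.4.6 and matplotlib 3.10.9.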

Additional observations from a re-analysis of the deposited data

How the results depend on the processing

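The direction of the members' median was kept in each of the 7 pairwise or interaction comparisons under all settings tried, except that AOS against control turned to 0.07 without control replicate 1 and HFD+control-FMT against HFD turned to -0.02 without HFD replicate 2. The number of members called changed for HFD against control and for the F test, and for no other comparison. For HFD against control it was 4, as it was with a pseudocount of 0.1 or 0.5. It was 0 with no filter, with scaling by median ratios, with quantile normalization, with haemoglobin left out and rescaled, and with a fit to the compared libraries alone. It was 8, with 6.28% of all genes called, with the filter raised to 5 FPKM, where fewer genes were tested. It was 33, with 14.2% of all genes called, with a replicate block. The labels do not pair libraries by number, and same-numbered HFD and control libraries had correlations of 0.151, 0.0379 and 0.360. Leaving out a single library gave 0 to 40 members. The F test called 0, with 1 under the replicate block, where 1.62% of all genes were called, and 0 to 6 when a library was left out, where 0.00771% to 7.88% of all genes were called. The block changed no other call, including that of HFD+AOS against HFD, where a hint of pairing by number comes from the data alone. The cause of these changes was not tested. Of the called genes, the Mki67 difference for HFD against control ran from -1.08 to -0.66 over 27 settings and passed in 9, with limma adjusted p from 0.00825 to 0.342. Depth is unknown, so what it limits cannot be given.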
